A study of Homo sapiens with 16 samples.

Results

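The genes of the insulin and insulin-like growth factor (IGF) receptors and their main substrates, INSR, IGF1R, IGF2R, IRS1 and IRS2, were followed in MCF-10A cells during 45 h of treatment with a HER2 kinase inhibitor. The members were found by symbol in the deposited intensity table, with every probe kept separate. Each symbol had 1 row, so the members were 5 of the 18190 genes and 5 of the 20589 rows of the table, and each row stood for a single probe. All 5 passed the filter on detection and were among the 11957 probes tested.

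INSR is the insulin receptor and IGF1R the receptor of IGF-I, and both are tyrosine kinases at the cell surface that phosphorylate the docking proteins IRS1 and IRS2. The phosphorylated docking proteins bind PI3 kinase and pass the signal to AKT, mTOR and the FOXO transcription factors. IGF2R, the cation-independent mannose 6-phosphate receptor, carries no kinase, takes up IGF-II for breakdown and sorts lysosomal enzymes. Mammary epithelial cells in serum-free culture are known to need insulin or IGF for growth.

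MCF-10A is an established line of nontransformed epithelial cells of the human breast. The inhibitor, a small molecule, has only a code name in the labels. The 0 h array was labelled untreated, and the other 15 arrays were from parallel cultures collected every 3 h from 3 to 45 h after 1 µM inhibitor was added. RNA was hybridized to Illumina human Ref8v2 arrays, 1 for each of the 16 time points. All cultures were grown without serum in medium with insulin at 5 µg/ml, EGF at 10 ng/ml and hydrocortisone, and the medium was changed at the start of treatment. No series without inhibitor was analysed here, so the inhibitor, the fresh medium and the time in culture cannot be told apart, and the HER2-transduced MCF10HER2 arm was not analysed here.

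Median intensities of the arrays were 210 to 254, 50.1% to 52.9% of the rows had a detection p under 0.05 on an array. Precision is limited by how few arrays there are. Of the genes listed as markers of basal mammary epithelium, KRT5, KRT17 and CDH1 were above background on all 16 arrays. The CDH1 probe was dim, no brighter than 319. The KRT14 probe was above background on 1 array, and TP63 was not matched by symbol. The probes of ESR1 and PGR and all 3 fibroblast markers were not above background on any array. The probes of GATA3 and PECAM1 were above background on 15 arrays, CD14 on 12 and PTPRC on 5, none brighter than 363. CD3E, CDH5 and VWF were not above background on any array.

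Values below are log2 intensities after background correction and quantile normalization. With 1 array at each time point, the spread was taken around a fitted curve of time, or within 4 windows of 4 consecutive arrays (0 to 9, 12 to 21, 24 to 33 and 36 to 45 h). The arrays of a window are not replicates of a condition, and their SD holds the change within the window too. All adjusted p-values are from limma with Benjamini-Hochberg adjustment over all tested probes, and a gene was called at an adjusted p under 0.05.

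The array table holds no probe sequences, so the sequences before the gene starts of the 3 members with a called course are shown from RefSeq (GRCh38.p14), in which all 5 members were found. The first entry of each symbol was used. Each line gives the 150 bases just before the start, 5′ to 3′ on the strand of the gene. IRS2 lies at chr13:109786584-109786733 on the minus strand, IRS1 at chr2:226799821-226799970 on the minus strand and IGF2R at chr6:159968932-159969081 on the plus strand. Capitals mark matches to CACGTG (an E-box), TGTTTTG or TGTTTAC (elements of the kind that forkhead factors bind) and GGGCGG (a GC box), each searched on both strands.
IRS2: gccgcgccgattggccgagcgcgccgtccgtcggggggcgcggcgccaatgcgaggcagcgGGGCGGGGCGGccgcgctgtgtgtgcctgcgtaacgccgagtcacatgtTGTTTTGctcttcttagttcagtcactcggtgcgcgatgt
IRS1: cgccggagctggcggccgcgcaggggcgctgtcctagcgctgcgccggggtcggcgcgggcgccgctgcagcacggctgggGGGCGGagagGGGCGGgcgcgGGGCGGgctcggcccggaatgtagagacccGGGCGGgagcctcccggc
IGF2R: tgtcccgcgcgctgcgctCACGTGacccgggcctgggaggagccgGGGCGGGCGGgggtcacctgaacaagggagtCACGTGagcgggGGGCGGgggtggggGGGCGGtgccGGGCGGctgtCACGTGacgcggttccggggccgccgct

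These stretches differed in the motifs they held. The IRS2 stretch held 1 TGTTTTG, with its first base 40 bases before the start, and 2 GGGCGG that overlap. The IRS1 stretch held 4 GGGCGG and no match to the other 3 motifs. The IGF2R stretch held 3 CACGTG, with first bases 132, 74 and 28 bases before the start, and 5 GGGCGG, of which 1 pair overlaps. Of all 35116 promoters of the table, 4.57% held CACGTG in the same 150 bases, 2.34% TGTTTTG, 1.73% TGTTTAC and 36.8% GGGCGG. The INSR stretch held 4 GGGCGG alone and the IGF1R stretch none of the 4 motifs. The matches are a description of the letters in these windows.

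The course over time was called for 3 of the 5 members, IGF2R, IRS1 and IRS2, where 54.6% of all tested probes were called by the same F-test on a spline of time. From 0 to 9 h to 36 to 45 h, IRS1 rose 1.89-fold and IRS2 fell 1.70-fold, and no change was called for the 3 receptors. IGF2R fell early and came back late. Over all tested probes, 16.2% were called higher and 15.0% lower in this comparison, so the share of called members, 1 of 5 in each direction, was near the background.

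**Figure D1:**
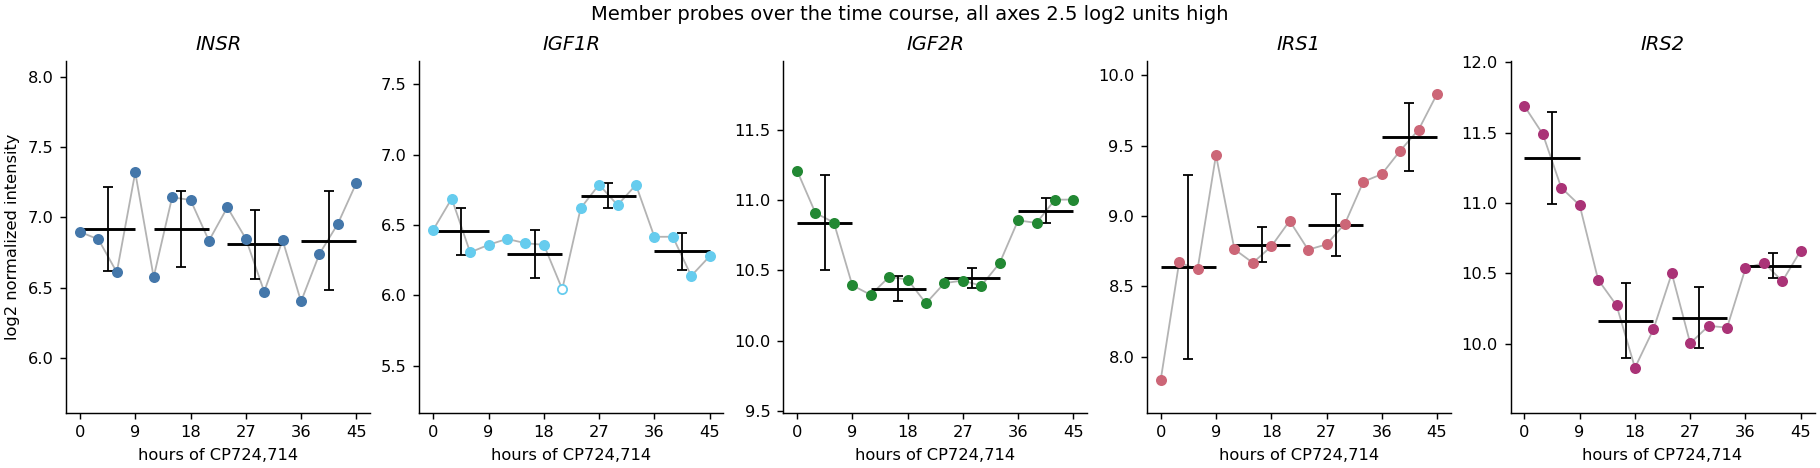
Log2 normalized intensity of each member probe (y axis) against hours of inhibitor (x axis), 1 array for each point, with black bars for the mean of each window of 4 arrays and error bars for its SD. The open point marks the array on which IGF1R was not above background. IRS1 climbed from 7.83 to 9.87, IRS2 fell from 11.69 to 9.83 at 18 h, IGF2R was lowest in the 2 middle windows, and INSR (6.40 to 7.32) and IGF1R (6.04 to 6.79) moved up and down with no called course.

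INSR (probe ILMN_18882) was above background on all 16 arrays, yet dim. Its deposited intensity ran from 245 to 340 with a median of 286, where the negative control level of the arrays was 166 to 199 and the lowest intensity called detected was 201 to 248. On the log2 scale it lay at 6.90, 6.84, 6.61 and 7.32 at 0, 3, 6 and 9 h, and at 6.57, 7.14, 7.12 and 6.83 from 12 to 21 h. The 9 h array was the highest of these and of the series, and the 12 and 6 h arrays were the lowest of these. From 24 to 33 h INSR had values of 7.07, 6.85, 6.47 and 6.84, and from 36 to 45 h of 6.40, 6.74, 6.95 and 7.24. The last 4 arrays rose in order, from the lowest of the series at 36 h to the second highest at 45 h. The window means were 6.92 ± 0.30, 6.92 ± 0.27, 6.81 ± 0.25 and 6.83 ± 0.35 (SD, n = 4 arrays each), and no neighbours in their order differed beyond this spread. The course was not called (adjusted p = 0.29, limma), and the change from the first to the last window was -0.08, with a 95% confidence interval of -0.49 to 0.33 (adjusted p = 0.78, limma). A change of INSR mRNA within this interval was not detectable with these arrays.

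IGF1R (probe ILMN_16324) was dim as well, with deposited intensities of 213 to 280 and a median of 257. It was above background on 15 arrays and not at 21 h. Its log2 intensity was 6.47, 6.69, 6.31 and 6.36 from 0 to 9 h and 6.40, 6.37, 6.36 and 6.04 from 12 to 21 h. It stood at 6.62, 6.79, 6.64 and 6.79 from 24 to 33 h and at 6.42, 6.42, 6.14 and 6.28 from 36 to 45 h. The arrays of 24 to 33 h lay above all arrays of the windows before and after them except the 3 h array, which was higher than the 24 and 30 h arrays. The highest value, at 27 h, was at least 1.53-fold above the value at 21 h, which is a bound because the probe was not above background there. The step up into 24 to 33 h was 0.41 (SE 0.12) and was not called (adjusted p = 0.54, limma), and the step down to 36 to 45 h was -0.40 (SE 0.12) and was called (adjusted p = 0.014, limma). The step down lost its call without the 42 h array (-0.34, adjusted p = 0.052, limma), and without background correction it was -0.17. The course as a whole was not called (adjusted p = 0.093, limma), but was without the 21 h array (adjusted p = 0.043, limma).

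The bead background moved along with the time course. The negative control level was 188 to 199 on the arrays of 0 to 21 h and 166 to 185 on those of 24 to 45 h. The deposited intensity of IGF1R was 253 to 278 from 0 to 18 h, 228 at 21 h and 253 to 280 from 24 to 33 h. The log2 deposited intensities of 6719 probes not above background on any array were centred on the median of each array and then on the mean of each probe. Centring on probe means makes correlations between arrays negative on average. Across these probes, the mean correlation was -0.04 between arrays of the same side of the series, 0 to 21 h or 24 to 45 h. Between arrays of opposite sides it was -0.09. The part of this difference between sides in the IGF1R step between 21 and 24 h was not tested. The comparison without the step between 21 and 24 h was an alternative chosen after the data were seen. It leaves out the whole change from 12 to 21 h to 24 to 33 h (0.41 for IGF1R), any real change included. The changes before it (-0.16) and after it (-0.40) together gave -0.56 for IGF1R on the log2 scale. This sum was called (adjusted p = 0.035, limma). Measured from 0 to 9 h to 36 to 45 h, IGF1R changed by -0.14 and was not called (adjusted p = 0.39, limma).

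**Figure D2:**
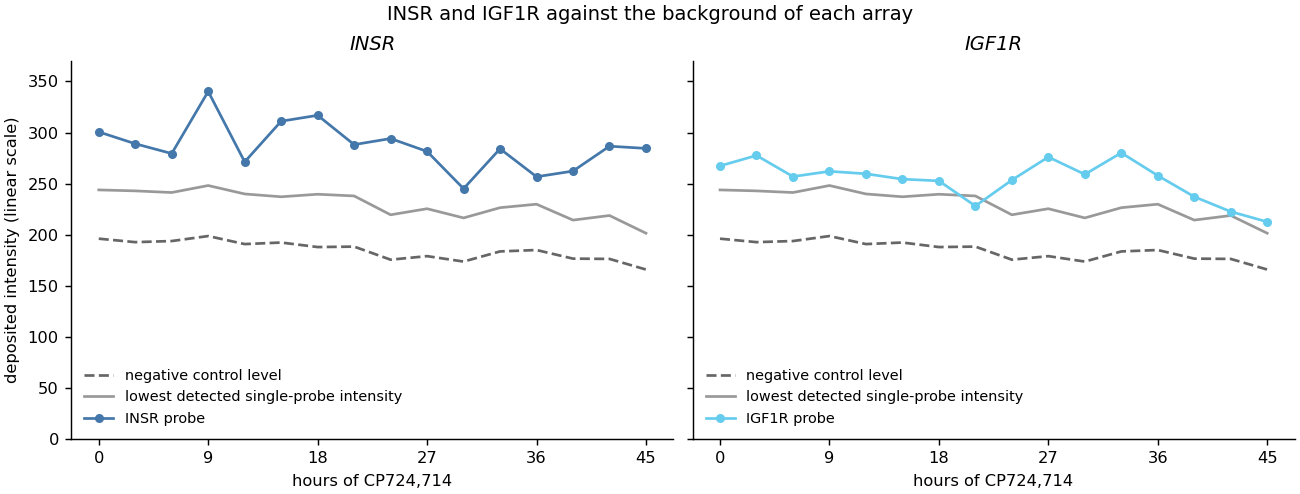
Deposited intensity on a linear scale (y axis) of the INSR and IGF1R probes against hours of inhibitor (x axis), with the negative control level of each array (dashed) and the lowest single-probe intensity with a detection p under 0.05 (grey line). INSR stayed above the grey line on all arrays, and IGF1R, between 213 and 280, ran close to it and fell below it at 21 h.

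IGF2R (probe ILMN_29769) was above background on all 16 arrays, at deposited intensities of 1410 to 2342. Its log2 intensity fell from 11.21 at 0 h through 10.91 and 10.84 to 10.39 at 9 h, and was 10.33, 10.45, 10.44 and 10.27 from 12 to 21 h. It was 10.41, 10.43, 10.39 and 10.55 from 24 to 33 h, and 10.86, 10.84, 11.00 and 11.00 from 36 to 45 h. The 8 arrays from 12 to 33 h thus lay below all 4 of the last window, and below those of 0, 3 and 6 h, while the 9 h array was already among them. In order, the window means were 10.92 ± 0.09 (36 to 45 h), 10.84 ± 0.34 (0 to 9 h), 10.44 ± 0.07 (24 to 33 h) and 10.37 ± 0.09 (12 to 21 h) (SD, n = 4 arrays each). The upper pair did not differ beyond its spread (0.09, 95% confidence interval -0.17 to 0.34), nor did the lower pair (0.07, -0.18 to 0.33).

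The course of IGF2R was called (adjusted p = 1.2e-05, limma), and a straight line in time, which cannot follow a dip, did not call it (adjusted p = 0.85, limma). The fall to 12 to 21 h was -0.47 (SE 0.12, adjusted p = 0.0079, limma) and the return at 36 to 45 h was 0.48 (SE 0.12, adjusted p = 0.0047, limma). The fall lost its call under median scaling in place of quantile normalization (-0.29, adjusted p = 0.065, limma) and in a fit of its 8 arrays alone (adjusted p = 0.059, limma). The return was called under each of 23 alternatives. From its highest to its lowest array, 0 h to 21 h, IGF2R fell 1.92-fold.

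IRS1 (probe ILMN_18432) was above background on all 16 arrays, with deposited intensities of 397 at 0 h and 976 at 45 h, its lowest and highest arrays. Its log2 intensity was 7.83, 8.67, 8.62 and 9.43 from 0 to 9 h and 8.76, 8.67, 8.78 and 8.97 from 12 to 21 h. It was 8.76, 8.80, 8.95 and 9.24 from 24 to 33 h, and 9.30, 9.46, 9.61 and 9.87 from 36 to 45 h. From 27 h on each array was higher than the one before it, and the 9 h array, a single high point, was the only array before 36 h to lie above any of the last window. INSR was highest on the 9 h array too. The value at 45 h was 4.09-fold that at 0 h, a ratio of single arrays.

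The course of IRS1 was called (adjusted p = 0.00023, limma), also under each of 24 alternatives. Its windows rose in order from 8.64 ± 0.65 to 8.79 ± 0.12, 8.94 ± 0.22 and 9.56 ± 0.24 (SD, n = 4 arrays each), and the first 3 did not differ beyond their spread, since the steps between them were 0.16 (adjusted p = 0.66, limma) and 0.14 (adjusted p = 1, limma). The last step was 0.62 (SE 0.23, adjusted p = 0.040, limma). This step lost its call without the 24, 27, 30, 39, 42 or 45 h array in turn, with log2 changes of 0.52 to 0.66, and under median scaling (0.53, adjusted p = 0.084, limma). From the first to the last window IRS1 rose by 0.92 on the log2 scale (SE 0.23, adjusted p = 0.0054, limma). Without the step between 21 and 24 h the rise was 0.78 and was not called (adjusted p = 0.13, limma).

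IRS2 (probe ILMN_14503) was above background on all 16 arrays, with deposited intensities of 3244 at 0 h and 1156 at 18 h, its highest and lowest arrays. Its log2 intensity was 11.69, 11.49, 11.11 and 10.98 from 0 to 9 h and 10.46, 10.27, 9.83 and 10.10 from 12 to 21 h. It was 10.50, 10.00, 10.13 and 10.11 from 24 to 33 h, and 10.54, 10.58, 10.44 and 10.66 from 36 to 45 h. Each array from 0 to 18 h was lower than the one before it, and none of the first window overlapped any later array. IRS2 fell 3.63-fold from its highest to its lowest array, and the value at 45 h was 2.04-fold below that at 0 h.

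The course of IRS2 was called (adjusted p = 2.3e-06, limma), though not by a straight line (adjusted p = 0.076, limma). In order, the window means were 11.32 ± 0.33 (0 to 9 h), 10.55 ± 0.09 (36 to 45 h), 10.19 ± 0.22 (24 to 33 h) and 10.16 ± 0.27 (12 to 21 h) (SD, n = 4 arrays each), and the last 2 of these differed by 0.02 (95% confidence interval -0.30 to 0.34). The fall to 12 to 21 h was -1.15 (SE 0.15, adjusted p = 4.3e-05, limma) and was called under each of 23 alternatives. The rise from 24 to 33 h to 36 to 45 h was 0.37 (SE 0.15) and was not called (adjusted p = 0.068, limma), but 4 of 23 alternatives called it, among them the fit of only the 8 arrays compared (adjusted p = 0.0057, limma) and those without the 0, 9 or 24 h array. From the first to the last window the change was -0.76 (SE 0.15, adjusted p = 0.001, limma), called under each of 24 alternatives.

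**Figure D3:**
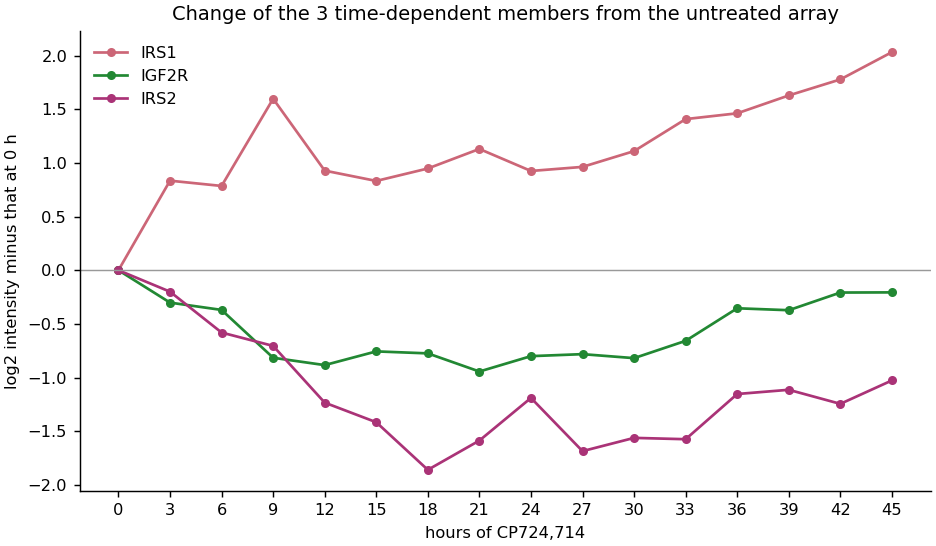
Log2 intensity minus that at 0 h (y axis) for IRS1, IGF2R and IRS2 against hours of inhibitor (x axis), 1 array for each point and with the untreated array as 0. IRS1 lay above 0 and IRS2 and IGF2R below 0 on all 15 later arrays, and IRS1 ended at 2.03 and IRS2 at -1.03.

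The genes of the docking proteins changed in opposite directions from 0 h, and their log2 intensities came closer. IRS1 and IRS2 stood at 7.83 and 11.69 at 0 h, and at 9.87 and 10.66 at 45 h. Relative to 0 h, the log2 intensity of IRS1 minus that of IRS2 had changed by 1.04 at 3 h, 2.30 at 9 h, 2.81 at 18 h and 3.06 at 45 h. All of these values share the single 0 h array. Against the mean of the first window, which does not rest on 1 array, IRS1 minus IRS2 had changed by 1.31 ± 0.33 at 12 to 21 h, 1.43 ± 0.36 at 24 to 33 h and 1.69 ± 0.22 at 36 to 45 h (SD, n = 4 arrays each). The first window itself had an SD of 0.95.

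Step by step, the members called were as follows. In the earliest comparison, 6 and 9 h against 0 and 3 h, IRS1 rose (0.77, SE 0.25, adjusted p = 0.030, limma), and IRS2 (-0.54, SE 0.15, adjusted p = 0.012, limma) and IGF2R (-0.44, SE 0.13, adjusted p = 0.023, limma) fell, where 13.2% of all tested probes were called higher and 11.5% lower. Each group here was 2 arrays, and all 3 calls were lost without the 0 h array and without the 9 h array. Without the 0 h array the changes were 0.36 for IRS1, -0.44 for IRS2 and -0.29 for IGF2R, and without the 9 h array they were 0.37, -0.48 and -0.22. The change of IRS1 was 1.19 without the 3 h array and 1.18 without the 6 h array, and that of IGF2R -0.67 without the 6 h array. The call of IGF2R was lost under median scaling too (-0.36, adjusted p = 0.068, limma). From 0 to 9 h to 12 to 21 h, 2 of 5 members fell, IGF2R and IRS2, and none rose, where 15.1% of all tested probes were called higher and 14.4% lower.

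From 12 to 21 h to 24 to 33 h none of the 5 members was called by limma, and 3 of all 11957 tested probes were, which is 0.0251%. At an unadjusted p under 0.05 there were 585 such probes, about the share that this threshold passes when nothing changes. IGF1R was the one member among them. From 24 to 33 h to 36 to 45 h, IGF2R and IRS1 rose and IGF1R fell, where 19.3% of all tested probes were called higher and 18.7% lower. Without the 42 h array only IGF2R was called in this step.

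**Figure D4:**
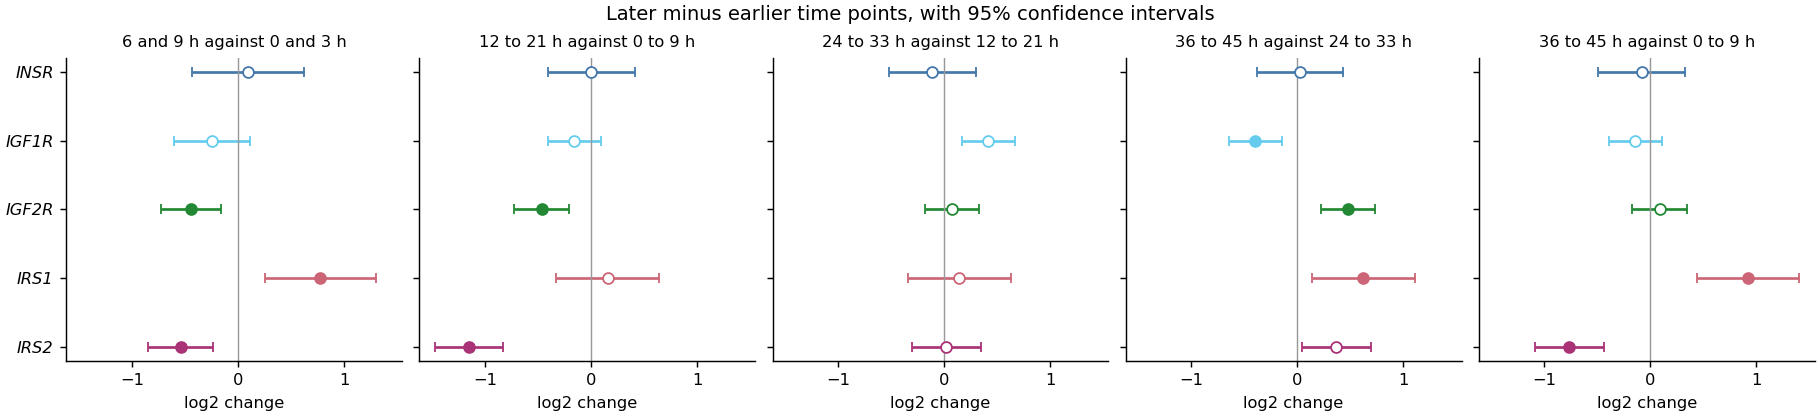
Log2 change of each member (x axis, later minus earlier time points) in 5 comparisons, with 95% confidence intervals from limma and filled points for an adjusted p under 0.05. IRS2 had its largest change, -1.15, from 0 to 9 h to 12 to 21 h, IGF2R moved by -0.47 and then 0.48, and no point is filled from 12 to 21 h to 24 to 33 h.

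The genes whose courses were most like those of the members were taken as the 3 highest Pearson correlations over the 16 arrays among all tested probes, a description with no test, and all probes share the same 16 arrays. For IRS2 they were SLC2A1, the glucose transporter GLUT1 (r = 0.95), SFTPD, surfactant protein D (r = 0.95) and FBXO32, an F-box protein of a ubiquitin ligase (r = 0.95). FBXO32 fell from a mean of 12.31 at 0 to 9 h to 9.36 at 12 to 21 h and stood at 10.71 at 36 to 45 h, a larger swing of the same shape as IRS2. For IGF2R they were STAT2 (r = 0.97), FXYD3 (r = 0.96) and FLJ41131 (r = 0.96), and STAT2, a transcription factor of interferon signalling, had window means of 10.52, 9.42, 9.54 and 10.81. For IRS1 they were TBC1D22A, OBFC2A and METTL7B (r = 0.93 each). The dim receptors had no close match, with CDC42EP1 (r = 0.72), NR2E1 and C21orf67 (r = 0.71 each) for INSR, and FLJ38725, HMGN1 (r = 0.72 each) and CPSF6 (r = 0.71) for IGF1R. The NR2E1 probe was above background on only 3 of the 16 arrays.

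Around the members, 65 other genes of insulin and IGF signalling were listed by role, of which 62 had a symbol in the table and 48 were tested. From the first to the last window 12 of the 48 rose (25.0%), 10 fell (20.8%) and 26 were not called, beside 16.2% and 15.0% of all tested probes, and 32 (66.7%) had a called course, beside 54.6%. The median change of the 48 was 0.07, against -0.02 for all tested probes. Median scaling gave 13 higher and 4 lower, and over all probes it gave 2793 higher and 1029 lower in place of 1932 and 1798. The count of genes that fell was 5 without the 3 h array, 6 without the 42 h array and 5 without the 45 h array. The counts were 8 and 3 with only the 8 arrays compared, and 6 and 3 without the step between 21 and 24 h.

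Of the ligands, the INS probe, for insulin itself, was above background on all 16 arrays but dim. Its deposited intensities were 283 to 422, where the negative control level was 166 to 199. Whether this signal came from insulin mRNA was not tested. The log2 change of the probe was -0.38 (adjusted p = 0.068, limma), which was not called under 23 of 24 alternatives. It was -0.24 under median scaling, -0.20 without background correction and -0.04 without the step between 21 and 24 h, and was called without the 6 h array (-0.55, adjusted p = 0.0047, limma). The IGF1 probe was above background on 2 arrays and the IGF2 probe on none, so neither was tested. Among 9 tested adaptors, which link the receptors to other pathways, 1 rose and 2 fell. The riser was SHC1, an adaptor to the RAS pathway, with a log2 change of 0.69 (SE 0.08, adjusted p = 6e-06, limma), and its values of 13.07 to 13.27 on the last 4 arrays lay above 12.34 to 12.67 on the first 4. A second, dimmer SHC1 probe, above background on 8 arrays, changed by 0.01 (adjusted p = 0.97, limma). GRB10, an adaptor that inhibits the receptors and is named here after its values were seen, also had 2 probes that disagreed, with changes of -0.36 (adjusted p = 0.034, limma) and 0.25 (adjusted p = 0.40, limma).

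Of the PI3 kinase subunits 2 of 6 rose and none fell, and of 4 tested kinases below PI3 kinase none rose and 2 fell. GSK3B, the kinase that restrains glycogen synthesis, changed by -0.81 (SE 0.13, adjusted p = 0.00012, limma), with 9.83 to 9.98 on the last 4 arrays below 10.24 to 11.04 on the first 4. Its untreated array, at 10.24, was the lowest of the first 4, and the arrays at 3, 6 and 9 h stood at 11.04, 10.89 and 10.71. SGK3, a kinase related to AKT, changed by -0.49 (adjusted p = 0.027, limma), a call kept under 16 of 24 alternatives, and by -0.30 without the 0 h array (adjusted p = 0.072, limma). Among the inhibitors of the pathway 3 of 10 rose and 3 fell. SOCS1, which blocks cytokine signalling and can target IRS proteins for breakdown, had the largest fall of the list. It stood at 9.79, 9.00, 9.00 and 8.73 on the first 4 arrays and between 7.63 and 7.98 on the last 4, with no overlap (-1.33, SE 0.18, adjusted p = 2.2e-05, limma). SOCS6, of the same family, changed by -0.51 (adjusted p = 0.020, limma), called under 20 of 24 alternatives.

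In the mTOR branch, which couples the pathway to protein synthesis, 4 of 10 rose and 3 fell. The risers included both genes of the complex that restrains mTOR, TSC1 (0.93, SE 0.21, adjusted p = 0.0022, limma) and TSC2 (0.64, SE 0.13, adjusted p = 0.0011, limma), and RICTOR (0.64, SE 0.18, adjusted p = 0.010, limma), a subunit of the second mTOR complex. TSC1 lay at 7.80, 7.02, 6.76 and 6.70 on the first 4 arrays and 7.84 to 8.10 on the last 4, so that its untreated array was nearly as high as the last ones. RICTOR lay at 9.09, 9.19, 8.26 and 8.37 on the first 4 arrays and 9.19 to 9.57 on the last 4, with overlap at the 3 h array. EIF4EBP1, the translation repressor that mTOR phosphorylates, changed by -0.86 (SE 0.13, adjusted p = 6.9e-05, limma), with 8.70 to 9.05 at the end below 9.37 to 9.94 at the start. RPS6KB2, an S6 kinase, changed by -0.40 (adjusted p = 0.042, limma), a call that held under 9 of 24 alternatives. Without the 45 h array, its lowest at 7.75, the change was -0.21 (adjusted p = 0.14, limma), and it was -0.24 under median scaling.

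Of 5 tested effectors 2 rose and none fell, and both were FOXO transcription factors, which insulin signalling holds out of the nucleus. FOXO4, listed in the table under its older symbol MLLT7, changed most of the list's risers, by 1.18 (SE 0.17, adjusted p = 5e-05, limma). It fell from 9.13 at 0 h to 7.90 at 15 h, was 8.87 at 33 h and then 10.01 to 10.24 on the last 4 arrays, above all others. FOXO1, listed as FOXO1A, changed by 0.64 (SE 0.17, adjusted p = 0.009, limma), and its untreated array, at 10.23, was as high as its last 4 at 10.14 to 10.29. The calls of FOXO1 and RICTOR were lost with only the 8 arrays compared (adjusted p = 0.056 and 0.067, limma) and without the step between 21 and 24 h (adjusted p = 0.11 and 0.19, limma). Those of FOXO4, TSC1, TSC2, SHC1, SOCS1, EIF4EBP1 and GSK3B held under all 24 alternatives, though the change of FOXO4 was 0.77 without that step.

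**Figure D5:**
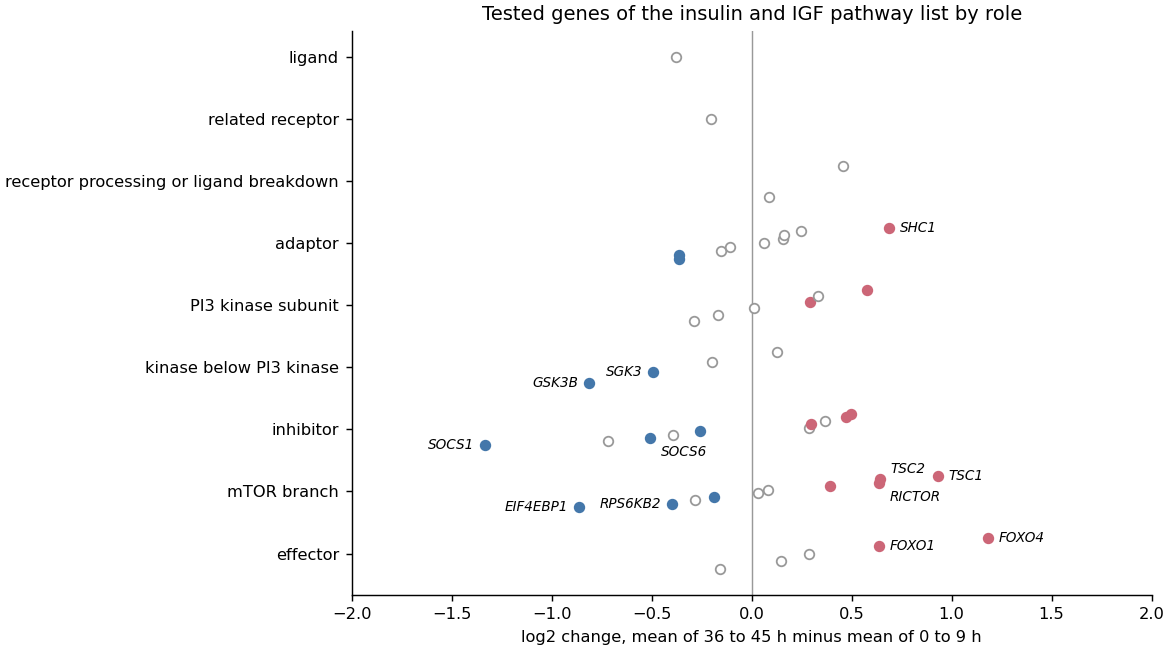
Log2 change from the mean of 0 to 9 h to the mean of 36 to 45 h (x axis) of the 48 tested pathway genes, by their role (y axis), each point the main probe of 1 gene. Filled points were called (red higher, blue lower) and open points were not, and the named genes reach from -1.33 for SOCS1 to 1.18 for FOXO4.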

How the data were processed

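RNA from MCF-10A cells was hybridized to Illumina human Ref8v2 arrays, 1 for each of 16 time points. The authors deposited linear bead intensity values that had not been normalized, and beside each a detection p-value measured against negative control beads. The methods of the study state quality control and quantile normalization. The summary software, any background correction and the annotation build are not given in the sources used here. Every column of values belonged to 1 of the 16 samples.

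The level of the negative controls came from the detection p of the 19092 rows whose values were whole multiples of 1 in 708 within 0.001, which stand for single probes (1497 rows are combined). With limma 3.58.1 in R 4.3.3, the background was subtracted by normexp (offset 16), arrays were quantile normalized and values put on the log2 scale. A probe was tested if its detection p was under 0.05 on 3 or more arrays. The offset compresses dim probes and understates their change. Courses were tested with the moderated F-test of limma for a cubic spline (natural) of time with 3 degrees of freedom (12 residual degrees of freedom), and windows with limma in a fit of 4 groups of 4 arrays (12) or, for the earliest comparison, 8 pairs (8), with the prior variance allowed to follow intensity. The spread of a probe is thus that between time points, which no replicate separates into biological and technical parts. Scripts were tested on simulated data. Figures were drawn with matplotlib 3.10.9.

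The members and lists were chosen with earlier results of these data known. By rule the text names all member probes, the 3 ligands, the 6 largest called increases and 6 largest called decreases of the pathway list, the 3 most alike genes of each member and the cell type markers, of which 1 is not reported here. For a gene with several probes the one with the highest mean among those tested is the main one, and symbols were matched to the table in their current or older form. Alternatives were cyclic loess, median scaling, an offset of 50, intensities without background correction, no filter, detection on all 16 arrays, other curves, fits of only the arrays compared, any tested probe of a gene, a comparison without the step between 21 and 24 h, and leaving out each time point.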

Additional observations from a re-analysis of the deposited data

How the results depend on the processing

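The number of called members changed by more than 1.5 times under few alternatives. A straight line in time called 1 member in place of 3 with the spline. For 12 to 21 h against 0 to 9 h, median scaling and the fit of only the 8 arrays compared each called 1 in place of 2. Leaving out each array in turn gave 3 to 4 members with a called course, 1 to 4 for 36 to 45 h against 24 to 33 h, 0 to 3 for 6 and 9 h against 0 and 3 h, and in the other window comparisons the same counts as with all arrays. The cause was not tested for any of these. Among the pathway genes, leaving out each array gave 10 to 13 that rose and 5 to 11 that fell. The count that fell was 4 in place of 10 under median scaling and 3 with only the 8 arrays compared, and without the step between 21 and 24 h, an alternative chosen after the data were seen, 6 rose in place of 12 and 3 fell. No called change reversed under any alternative run among the 5 members, INS and the 12 genes with the largest called changes of the list. Without background correction the changes of these 5 genes were smaller, with 0.47 for TSC1, 0.43 for TSC2, -0.22 for SOCS6, -0.30 for SGK3 and -0.26 for RPS6KB2, all still called. Alternatives were not run for the single genes GRB10, M6PR, IDE, MTOR and NCK1. The planned block by chip could not be run, since the labels and headers name no chip, and IGF1R has no value with detection required on all 16 arrays. Each time point rests on 1 array, INSR and IGF1R lie close to the background, and a change measured between windows cannot be assigned to the inhibitor.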

Other observations

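Another 11 genes of the pathway list had a called course without a called change from the first to the last window, and those given here were named after their values were seen. Over all tested probes, 15.1% were called higher and 14.4% lower at 12 to 21 h against 0 to 9 h. At 36 to 45 h against 24 to 33 h, 19.3% were called higher and 18.7% lower. The share of all tested probes with a rise or dip in the middle windows was not counted. M6PR, the cation-dependent mannose 6-phosphate receptor and so the partner of IGF2R in lysosomal sorting, had window means of 9.99 ± 0.16, 10.43 ± 0.27, 10.45 ± 0.13 and 9.79 ± 0.15 (SD, n = 4 arrays each; adjusted p = 0.0075 for the spline, limma). It was highest in the 2 middle windows, where IGF2R was lowest, and its last 4 arrays (9.63 to 9.97) did not overlap the 8 middle ones. IDE, the protease that degrades insulin, had a like shape, with 7.73 ± 0.44, 8.48 ± 0.12, 8.44 ± 0.14 and 7.82 ± 0.08 (SD, n = 4 arrays each; adjusted p = 7.4e-05 for the spline, limma). MTOR, listed under its older symbol FRAP1, stood at 8.14 ± 0.47, 8.68 ± 0.06, 8.76 ± 0.08 and 8.17 ± 0.21 (SD, n = 4 arrays each; adjusted p = 0.00095 for the spline, limma). NCK1, an SH2 and SH3 adaptor, ran the other way, with 9.66 ± 0.66, 8.87 ± 0.20, 9.03 ± 0.14 and 9.82 ± 0.12 (SD, n = 4 arrays each; adjusted p = 1.5e-05 for the spline, limma), as IGF2R did.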
